A study of Mus musculus with 18 samples.

Results

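The genes described here are 10 that stood high in the livers of obesity-prone mice on a high-fat diet: Lgals1 (galectin 1), Anxa2 and Anxa5 (annexins), S100a6, S100a10 and S100a11 (S100 proteins), Vim (vimentin), and Ly6d, Wfdc2 and Scand1. They are 10 of the 23474 genes in the deposited table and were chosen by symbol after earlier results on these livers had been seen. The values that chose them are those of the prone livers, so the liver comparisons of prone mice with either other group are given as a description, without a test. The 10 genes were tested only in resistant livers against normal-diet livers and in adipose tissue, which the choice did not use. RNA came from liver and from the white fat beside the epididymis (eWAT) of male C57BL/6J mice, 17 weeks old, after 12 weeks on a diet begun at 5 weeks of age. The 3 groups were a normal diet (ND), a high-fat diet in mice prone to it (HP) and a high-fat diet in mice resistant to it (HR), with 10 mice a group and 3 libraries per group and tissue, 18 in all. No genetic change is named for any group, and the labels give neither how prone and resistant mice were told apart nor whether each library was a separate mouse. The p-values therefore measure the spread between these libraries, which may be technical.

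Annexins are proteins that bind membrane phospholipid when calcium rises. S100 proteins are small calcium-binding partners of other proteins, and S100a10 and S100a11 bind annexins, S100a10 being the classic partner of annexin A2 at the inner face of the plasma membrane. Galectin 1 is a lectin that binds beta-galactosides on cell-surface glycoproteins, and vimentin is the intermediate filament of mesenchymal cells. Hepatocytes in an uninjured liver are known for keratin 8 and keratin 18 filaments and for little vimentin, annexin A2 or galectin 1, while stellate cells, bile duct cells, macrophages and endothelial cells carry these genes. Ly6d encodes a small surface protein of the LY6 family anchored by a lipid, Wfdc2 a secreted protein with whey acidic protein domains, and Scand1 a small nuclear protein with a SCAN domain, which binds other SCAN domain proteins.

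The DNA just upstream of the genes was available for 7 of the 10 (all but Lgals1, S100a10 and Ly6d) as windows of 250 bases before and 50 after the start of the gene, from RefSeq on GRCm38.p6. The stretches of S100a11, Anxa2 and Scand1 are printed because the first and second were the windows with a binding motif of AP-1, the transcription factor formed by Fos and Jun proteins, and Scand1 had the largest difference of the 10 in prone livers. Only the part clear of annotated exons is given, 5′ to 3′ on the strand of the gene, with matches to the AP-1 motif (TGANTCA, which reads alike on both strands) and to the GC box (GGGCGG or, on the other strand, CCGCCC) in capitals. They lie at chr3:93520246-93520487 (plus strand), chr9:69453433-69453619 (plus strand) and chr2:156312800-156312954 (minus strand).
S100a11: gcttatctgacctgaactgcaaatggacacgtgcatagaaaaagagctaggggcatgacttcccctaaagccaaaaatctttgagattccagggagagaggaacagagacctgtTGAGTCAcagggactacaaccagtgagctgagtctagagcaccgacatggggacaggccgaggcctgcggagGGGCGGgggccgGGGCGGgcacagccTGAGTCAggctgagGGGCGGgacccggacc
Anxa2: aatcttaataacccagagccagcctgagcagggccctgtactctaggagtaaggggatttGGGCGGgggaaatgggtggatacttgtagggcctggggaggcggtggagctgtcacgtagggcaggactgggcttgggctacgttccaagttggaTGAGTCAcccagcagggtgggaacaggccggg
Scand1: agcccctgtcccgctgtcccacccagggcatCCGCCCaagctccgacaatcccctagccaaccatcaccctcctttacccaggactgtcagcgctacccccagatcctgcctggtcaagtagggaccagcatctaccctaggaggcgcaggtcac
The AP-1 motif was found in 2 of the 7 windows, those of S100a11 and Anxa2, against 7.81% of all 32851 windows in the table. S100a11 carried it 136 and 38 bases before the start, and Anxa2 carried it 95 bases before the start. The GC box was found in 4 of 7 windows (Anxa2, S100a11, Scand1 and Wfdc2) against 35.7% of all windows, and the TATA box (TATAAA) in 2 of 7 (Anxa2 and Vim) against 13.6%. CCAAT was found in 2 of 7 (S100a6 and Vim) against 37.4%, and GGAATG, the motif of TEAD factors, in 0 of 7 against 14.7%. All motifs were searched on both strands and do not overlap each other. A match is a description of these letters.

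The values are FPKM, fragments per kilobase of transcript scaled to all mapped fragments of a library, and the absolute depth is unknown. Relative to ND 2, the depths of the other liver libraries were estimated at 0.877 to 1.09. The estimate is indirect, from the commonest ratio of FPKM values under 1 to those of ND 2. Correlations of log2(FPKM + 1) across genes were 0.93 to 0.988 between liver libraries and 0.266 to 0.984 between eWAT libraries. The labelled tissues showed their defining markers: 12 hepatocyte genes summed to 26179 to 57276 FPKM in liver, and 10 adipocyte genes to 4193 to 32175 FPKM in eWAT. The lowest liver sum is that of HP 3, where Alb, the albumin gene, is listed at 0 FPKM, against 21466 to 28319 in the other 8 livers. Without Alb, the hepatocyte genes summed to 26179 FPKM in HP 3 and to 23007 to 29813 in the others. Of genes with at least 100 FPKM in each of the other 8 livers, HP 3 lists 2 at 0, Alb and mt-Co1, and no other liver library lists any. None of the 10 genes is at 0 in a liver library. Other libraries stood apart by their transcripts. Liver HP 2 had 98.9 FPKM over 5 skeletal muscle genes and HP 3 had 19.9, where HP 1 had 0.12 and each ND and HR liver under 1. Over 4 spermatid genes, eWAT ND 1 had 92413 FPKM and HR 2 had 11231, where the remaining 7 had 7.47 to 2282. Of these 7, ND 3 had 2282 and HP 1 had 1738, and HP 2 had 1172 FPKM of the epididymis gene Crisp1. The 7 are therefore not free of such RNA. Differences of the 10 genes in prone livers are therefore also given without HP 2 and HP 3, and list counts without HP 3. The eWAT values are given over 9 libraries and over 7.

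In liver, every one of the 10 genes was higher in all 3 prone libraries than in any normal-diet or resistant library. Ratios of mean FPKM, prone to normal diet, ran from 2.08 for S100a10 to 43.9 for Scand1, and prone to resistant from 2.04 for S100a10 to 31.1 for Scand1. Of all 10633 genes tested in liver, 23.6% were higher in every prone than in every normal-diet library, 17.6% passed the test as higher and 14.1% as lower. Against resistant livers these shares were 17%, 7.2% and 3.94%. The 10 genes were chosen for this difference, so nothing is read from their count.

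**Figure D1:**
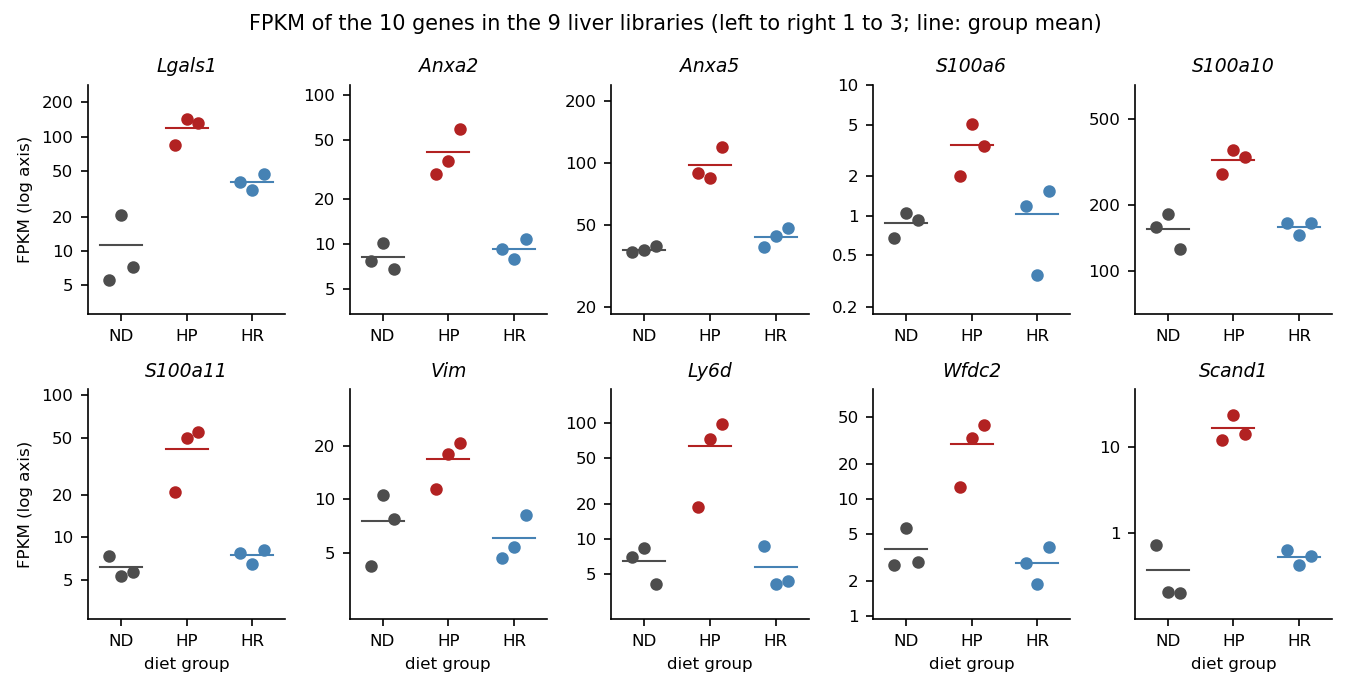
FPKM of each of the 10 genes in the 9 liver libraries, on log axes that differ between panels. Points are libraries 1 to 3 from left to right in each group, and lines are group means. All HP points lie above all ND and HR points in each of the 10 panels, and Lgals1 is the panel in which the HR points also lie above the ND points.

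The annexins stood at different base levels. Anxa2 (ENSMUSG00000032231), the annexin that links membranes to actin, measured 7.67, 10.1 and 6.78 FPKM in ND 1 to 3, 29.6, 36.1 and 58.7 in HP 1 to 3, and 9.25, 7.90 and 10.9 in HR 1 to 3. The ND and HR libraries overlapped, and the lowest HP library was well above both. Anxa5 (ENSMUSG00000027712), which binds phosphatidylserine and is used as a stain for dying cells, measured 36.8, 37.8 and 39.3 FPKM in ND, 89.8, 84.0 and 120 in HP, and 38.8, 44.2 and 48.1 in HR. Group means were 38 ± 1.26, 97.9 ± 19.4 and 43.7 ± 4.65 FPKM (SD, n = 3), so the prone livers also varied most. On the log2(FPKM + 1) scale the difference between prone and normal-diet means was 2.17 for Anxa2 and 1.33 for Anxa5, which placed them at ranks 37 and 151 of the 10633 genes.

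Of the S100 genes, S100a10 (ENSMUSG00000041959), the partner of annexin A2, was the most abundant of the 10 genes in every group. It measured 160, 182 and 126 FPKM in ND 1 to 3, 280, 358 and 333 in HP, and 166, 146 and 165 in HR. The ND and HR values were interleaved and the HP values lay above them, a difference of 1.06 (log2) from ND. S100a11 (ENSMUSG00000027907), a binding partner of annexin A1, measured 7.38, 5.32 and 5.75 FPKM in ND, 20.8, 50.4 and 55.1 in HP, and 7.73, 6.50 and 8.20 in HR. HP 1 was lower than the other prone livers here, yet above the highest HR library, and the difference from ND was 2.48. S100a6 (ENSMUSG00000001025), known as calcyclin and as a marker of proliferating and mesenchymal cells, was low: 0.674, 1.05 and 0.918 FPKM in ND, 2.02, 5.08 and 3.42 in HP, and 1.18, 0.350 and 1.55 in HR. Its lowest prone library was close to its highest resistant one, and the log2(FPKM + 1) difference of 1.21 understates the change of so low a gene.

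Galectin 1 separated all 3 groups. Lgals1 (ENSMUSG00000068220) measured 5.59, 20.6 and 7.31 FPKM in ND 1 to 3, 84.7, 143 and 133 in HP, and 40.0, 33.9 and 46.7 in HR. The HR values lay between those of ND and HP. The mean went from 11.2 ± 8.23 FPKM in ND to 40.2 ± 6.39 in HR and 120 ± 31.1 in HP (SD, n = 3). Its difference from ND was 3.48 (log2) in HP, rank 6 of the 10633 genes. Vimentin had the smallest ratio between its lowest prone and highest other library. Vim (ENSMUSG00000026728) measured 4.21, 10.6 and 7.74 FPKM in ND, 11.5, 18 and 20.8 in HP, and 4.65, 5.41 and 8.16 in HR, so HP 1 was only just above ND 2.

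The remaining 3 genes belong to other families. Ly6d (ENSMUSG00000034634), known as a marker of B lymphocyte and epithelial progenitors, measured 6.98, 8.39 and 4.03 FPKM in ND 1 to 3, 18.7, 73.7 and 98.4 in HP, and 8.71, 4.08 and 4.30 in HR. Wfdc2 (ENSMUSG00000017723), an epithelial secreted protein also known as HE4, measured 2.75, 5.61 and 2.90 FPKM in ND, 12.6, 33.0 and 43.1 in HP, and 2.82, 1.88 and 3.85 in HR. Both had their lowest prone value in HP 1, and in both the prone mean carried a wide SD, 63.6 ± 40.8 FPKM for Ly6d and 29.6 ± 15.5 for Wfdc2 (n = 3). Scand1 (ENSMUSG00000046229) measured 0.730, 0.210 and 0.203 FPKM in ND, 12.2, 23.5 and 14.4 in HP, and 0.642, 0.429 and 0.543 in HR. It lay under 1 FPKM in all 6 ND and HR libraries and above 12 in all 3 HP libraries, so it met the filter of 1 FPKM in 3 libraries through the prone group alone. Its difference of 3.65 from ND was rank 5 of 10633 genes, and that of 3.48 from HR was rank 1, ahead of Ly6d at rank 2 (3.04) and Wfdc2 at rank 4 (2.86).

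**Figure D2:**
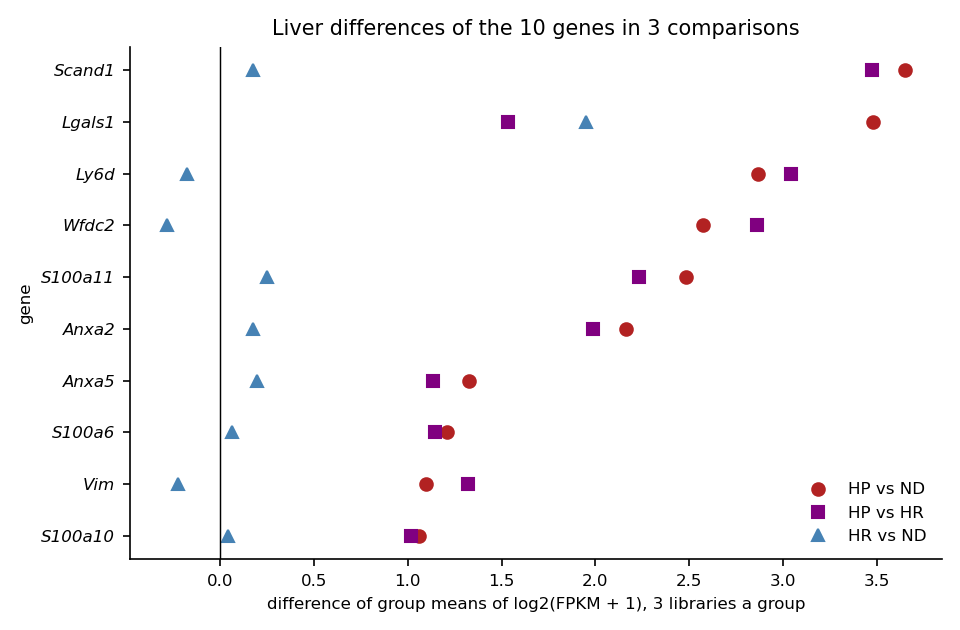
Difference of group means of log2(FPKM + 1) in liver for the 10 genes, ordered by HP against ND, with 3 libraries a group. Circles are HP against ND (1.06 to 3.65), squares HP against HR (1.02 to 3.48) and triangles HR against ND (-0.29 to 1.95). The Lgals1 triangle lies apart from the other 9, and the comparisons share libraries.

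Resistant livers against normal-diet livers is the liver comparison the choice did not use, although it shares its ND libraries with the comparison of prone livers. Scand1 met the filter through the prone group and is left out here. Of the other 9 genes, 1 passed the test as higher and 0 as lower, against 2.28% and 0.969% of all genes. The gene was Lgals1, which was 1.95 higher (log2(FPKM + 1), SE 0.37, limma with Benjamini-Hochberg adjusted p = 0.0185, 3.60 times by mean FPKM), with all 3 HR libraries above all 3 ND libraries. A gap of that kind was found for 14.8% of all genes, and the opposite gap for 11%. The remaining 8 overlapped between the groups, with differences from -0.29 for Wfdc2 to 0.25 for S100a11 and adjusted p from 0.499 to 0.921. Their intervals are wide: the SE ran from 0.14 for Anxa5 to 0.51 for Ly6d, so a p that missed the threshold does not show equal levels. The Lgals1 call depended on single libraries: the adjusted p was 0.0766 without ND 1, 0.0685 without ND 3, 0.0635 without HR 1 and 0.0722 without HR 3. Over all 18 alternatives its difference stayed between 1.61 and 2.47 with adjusted p from 0.000689 to 0.0766.

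The prone livers differed among themselves. HP 1 held the lowest prone value for 9 of the 10 genes, the exception being Anxa5, for which HP 2 was lowest. Between HP 3 and HP 1 the gap on the log2(FPKM + 1) scale was widest for Ly6d (2.34), Wfdc2 (1.70) and S100a11 (1.37), and narrowest for Scand1 (0.22) and S100a10 (0.25). HP 2 and HP 3 are also the libraries with skeletal muscle transcripts, and the part of those in these values was not tested. In HP 1 alone, which had no such excess, 9 of the 10 genes still met the filter, Scand1 failing it. Differences from ND moved by over 1.5 times for Ly6d (2.87 to 1.45), Wfdc2 (2.57 to 1.57), S100a11 (2.48 to 1.62), S100a6 (1.21 to 0.69) and Vim (1.10 to 0.63). Those of Lgals1 (3.02), Anxa2 (1.75), Anxa5 (1.22) and S100a10 (0.85) moved by less. From HR, the differences in HP 1 alone were 0.62 for S100a6 to 1.85 for Wfdc2, and those of Ly6d, S100a6, S100a11, Vim and Wfdc2 moved by over 1.5 times. Without HP 3 the difference from ND stayed between 0.93 (Vim) and 3.39 (Lgals1) for the same 9 genes. Over 9 liver libraries the 10 genes moved together as a description: the 45 pairwise Pearson correlations of log2(FPKM + 1) ran from 0.724 (Vim with Lgals1) to 0.976 (Anxa2 with Anxa5), with a median of 0.911. The points share the 3 diet groups for which the genes were chosen, and the libraries share their scaling. Against the average of the other 9, Anxa2 (0.986) and Wfdc2 (0.98) correlated most and Lgals1 (0.827) least.

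Genes outside the 10 whose liver pattern was most like their average were sought among 657 genes with an SD of at least 0.5 (log2) over the 9 libraries. These genes also had a mean of at least 5 FPKM in a group and no predicted or clone name. The average is high in prone livers because the 10 were chosen so. Genes raised there therefore correlate with it by construction, and the ranking is only a description. The closest were Lcn2 (r = 0.986), the iron-siderophore binding protein lipocalin 2, Apoc2 (0.985), the activator of lipoprotein lipase, Cstb (0.983), an inhibitor of cathepsins, and Gstm3 (0.981), a glutathione transferase. Next came Tkt (0.98), transketolase of the pentose phosphate pathway, Raet1d (0.98), a ligand of the receptor NKG2D, H2afj (0.979), a histone H2A variant, and Orm2 (0.978), an acute-phase plasma protein. Gstm3 went from 2.70 FPKM in ND to 30.5 in HP and 4.38 in HR by group mean. Orm2 went from 8.58 FPKM in ND to 50.8 in HP and 7.63 in HR.

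The relatives of the 10 genes were counted in prone against normal-diet livers, where 31.7% of all genes passed the test in either direction. Without the members, 5 of 6 tested S100 genes were higher and 0 lower, with a median difference of 1.04 against -0.02 for all genes. Of the 5, S100a8 and S100a9 are also neutrophil markers and are counted again in that list below. S100a1, an S100 protein of muscle and other tissues, rose from 90.4 ± 15.8 to 223 ± 49.7 FPKM (1.28, SE 0.18, adjusted p = 0.00101). Among annexins 2 of 7 were higher and 0 lower, with a median of 0.19, and the larger of these was Anxa4 at 0.56 (adjusted p = 0.00469). Of the galectins 2 of 6 were higher: Lgals3, the galectin of macrophages and epithelia, rose by 1.30 from 2.59 ± 0.68 to 8.46 ± 4.05 FPKM (adjusted p = 0.00954), and Lgals3bp by 0.67. Among intermediate filaments 4 of 7 were higher and 0 lower. Krt8 rose by 1.15, from 85.2 ± 4.73 to 191 ± 27.7 FPKM (adjusted p = 0.000341), and its partner Krt18 by 0.59. In the LY6 family 1 of 6 was higher, and in the WAP family 0 of 3 passed by limma (0 also at an unadjusted p under 0.05), the largest difference being 0.56 for Wfdc17.

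The surrounding pathways were also counted. Of the list of annexin 2 partners and plasminogen activation, the protease system that annexin A2 with S100a10 assembles at the cell surface, 5 of 10 tested genes were higher and 2 lower. Eno1, Ctsb and Cib1 rose by 0.46 to 0.61, and Dlc1 fell by 0.64 on the log2 scale. Of 27 actin, tubulin and membrane cytoskeleton genes 16 were higher and 1 lower (median 0.63). Tmsb10, a thymosin that binds actin monomers, rose by 1.56, Stmn1, which destabilises microtubules, by 1.18, and Actb by 0.93. Of 25 genes of hepatocyte stress and injury response 18 were higher and 0 lower (median 0.83). Gdf15, a hormone induced by cell stress, rose from 1.36 ± 0.49 to 29.9 ± 6.95 FPKM (3.71, adjusted p = 3.48e-06), the largest difference of the list. Lcn2 rose from 1.69 ± 0.83 to 28.0 ± 13.8 FPKM (3.33, SE 0.38, adjusted p = 0.000363), Nqo1, a quinone reductase under NRF2, by 1.51, and Ddit3, the stress factor CHOP, by 0.74. Without HP 3, 13 of 25 stress, 14 of 27 cytoskeleton, 4 of 6 S100 and 3 of 7 intermediate filament genes passed as higher. So did 1 of 7 annexins, 2 of 6 galectins, 0 of 6 LY6 genes (1 at an unadjusted p under 0.05) and 4 of 10 annexin 2 partner genes. Lower were 1 cytoskeleton and 2 annexin 2 partner genes. Of all 10529 genes tested there, 1589 passed as higher. HP 2, with the most muscle transcripts, is kept in those counts. With HP 1 as the only prone library that group has no spread of its own, so no list counts are given.

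**Figure D3:**
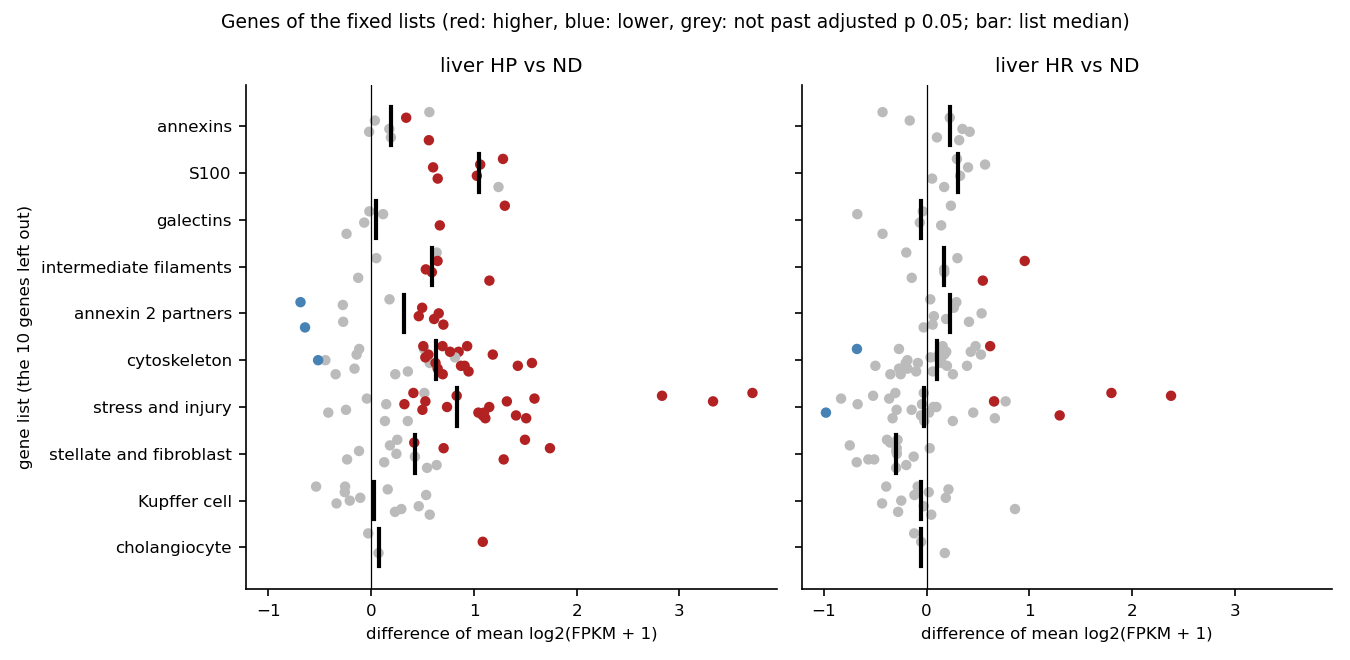
Liver differences of mean log2(FPKM + 1) for the tested genes of 10 lists, without the 10 genes described here, in HP against ND (left) and HR against ND (right). Each point is a gene, red where it passed the test as higher, blue as lower, grey otherwise, and black bars are list medians. In HP against ND the stress and injury list has 18 red points of 25 and a median of 0.83, and in HR against ND 4 red and 1 blue with a median of -0.02.

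Resistant livers were set against the same ND libraries, where 2.28% of all genes were called higher and 0.969% lower. Of the stress list 4 of 25 were higher and 1 lower. Gdf15 rose from 1.36 ± 0.49 to 7.09 ± 0.30 FPKM (1.8, SE 0.18, adjusted p = 0.000862), less than in prone livers, which were 1.91 higher than resistant ones (adjusted p = 0.00062). Gadd45a rose by 1.29, and by 1.41 in HP against ND, and Trib3 by 0.66, while Atf5 fell by 0.98 on the log2 scale. Of intermediate filaments 2 of 7 were higher, Krt23 (0.95) and Krt8 (0.55, adjusted p = 0.0466). Of the cytoskeleton 1 of 27 was higher, Tuba1c, and 1 lower, Tpm4. In the S100, annexin, galectin, LY6, WAP and annexin 2 partner lists 0 passed by limma in either direction, where 2, 3, 2, 1, 0 and 3 genes had an unadjusted p under 0.05. For HP against HR, which shares libraries with both, 12 of 25 stress genes and 10 of 27 cytoskeleton genes were higher and 0 lower. Of all genes, 7.2% were called higher there and 3.94% lower. In the annexin 2 partner list 1 of 10 was higher and 4 lower there: Serpine2 (-0.98), Serpinf2, the plasma inhibitor of plasmin (-0.68), Plg, plasminogen (-0.54), and Dlc1 (-0.61). Without HP 3, 6 of 25 stress and 3 of 27 cytoskeleton genes were higher than in HR and 0 lower. Of the 10 annexin 2 partner genes 0 were then higher and 2 lower, Serpine2 and Serpinf2. That setting called 304 of all 10529 genes higher.

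Several of the 10 genes are carried by liver cells other than hepatocytes, and markers of those cells were summed in each library. Fewer cells of a type and less RNA per cell cannot be told apart in bulk tissue. The 16 stellate and fibroblast genes summed to 165 to 221 FPKM in ND, 205 to 302 in HP and 110 to 180 in HR. In HP against ND 5 of the 14 tested were higher and 0 lower, among them the collagens Col3a1 (1.74, from 3.13 ± 0.63 to 13.7 ± 6.24 FPKM, adjusted p = 0.00197) and Col1a2 (1.29). Col1a1 (1.50) is also among the 5, but outside HP it reached 1 FPKM only in ND 2 (1.18). It met the filter through the prone livers, so its call is not read. The stellate marker Lrat was at 0 in all 9 libraries. The 12 Kupffer cell genes summed to 108 to 151 FPKM in ND, 127 to 169 in HP and 83.5 to 206 in HR, and in HP against ND 0 of 12 passed in either direction by limma (0 also at an unadjusted p under 0.05). Their differences ran both ways, from -0.54 (Adgre1) to 0.57 (C1qc), with a median of 0.03. The 12 genes of recruited and lipid-associated macrophages summed to 41.1 to 48.5, 46.7 to 81.6 and 28.4 to 77.5 FPKM, with 1 of 5 tested higher and with Itgam, Itgax, Gpnmb, Chil3 and Cx3cr1 under 1 FPKM in every liver library. The gene called was Mmp12, near the floor in ND (0.197 ± 0.126 FPKM, against 1.93 ± 1.18 in HP). Its call is not read. The 12 cholangiocyte genes summed to 41.2 to 53.4, 59.8 to 123 and 38 to 47.9 FPKM. Spp1, osteopontin, made up most of that sum and rose by 1.09 in HP against ND (34.3 ± 6.47 to 77.1 ± 30.4 FPKM, adjusted p = 0.00899), whereas 7 of the 12, with the defining keratins Krt7 and Krt19, lay under 1 FPKM in all liver libraries and Elf3 at 0. The endothelial genes summed to 91.3 to 129, 94.3 to 113 and 68.7 to 83.1 FPKM, with 1 of 11 higher and 3 lower in HP against ND. For the neutrophil list Ly6g and Mpo were at 0, the sum was 2.20 to 2.30 in ND, 5.87 to 7.16 in HP and 2.86 to 6.75 in HR, and the 2 tested genes, S100a8 and S100a9, were higher in HP against ND. The erythroid genes summed to 125 to 156, 196 to 333 and 119 to 208 FPKM with 3 of 5 higher. The 10 adipocyte genes summed to 53.1 to 83.9, 142 to 186 and 66.0 to 86.6 FPKM with 3 of 5 higher, although Plin1, Lep, Retn and Slc2a4 lay under 1 FPKM in every liver library. Of the hepatocyte genes 1 of 12 was higher and 4 were lower, including Cps1 of the urea cycle (-1.94). No gene of the lymphocyte, mesothelial or spermatid lists met the filter in liver, and 1 skeletal muscle gene did without passing the test. Without HP 3, 4 of 13 stellate and fibroblast, 4 of 5 adipocyte, 3 of 5 erythroid, 1 of 3 cholangiocyte and 1 of 2 neutrophil genes were higher and 0 lower. That setting called 1589 of all 10529 genes higher. Of the hepatocyte genes 1 of 12 was higher and 3 lower, and of the endothelial genes 1 of 11 was higher and 2 lower. Of 12 Kupffer cell and 4 recruited macrophage genes 0 passed by limma (0 also at an unadjusted p under 0.05). With HP 1 as the only prone library no list counts are given. The part of these cells in the values of the 10 genes was not tested.

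Transcript length and base composition moved with the liver differences. Across 10553 genes, which are not independent replicates, the HP against ND difference had a Spearman correlation of -0.492 with transcript length and 0.25 with GC content, and of -0.314 and 0.143 in HR against ND. The longest annotated transcripts of the 10 genes ran from 511 bases (S100a11) to 2926 (Vim), against a median of 2794 over 22671 genes. All but Vim were under that median, and Scand1 has 759 bases at 68.4% GC. After smooth trends in length and GC were removed from each library, the differences between prone and normal-diet livers were 2.93 for Lgals1, 2.82 for Scand1, 2.32 for Ly6d, 2.07 for Anxa2, 1.98 for S100a11 and for Wfdc2, 1.18 for Vim and 1.08 for Anxa5. S100a6 and S100a10 dropped by more than 1.5 times, to 0.70 and 0.54. All 10 kept a positive sign, and the median was 1.98 in place of 2.33. Rescaling all libraries to the same FPKM sum lowered the median of all genes by about as much as it lowered the 10: the median of all genes was -0.20 and that of the 10 was 2.12.

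In eWAT the genes stood at other levels. Lgals1, Anxa2, S100a6, S100a11 and Vim had no overlap between tissues, with eWAT higher in every library. How many of all genes separate the tissues in this way was not counted. Nothing is therefore read from the number of these genes. Over 9 eWAT libraries the medians were 1193 FPKM for Vim, 978 for S100a11, 834 for Lgals1, 750 for Anxa2 and 229 for S100a6, against 8.16, 7.73, 40.0, 10.1 and 1.18 in liver. Anxa5, S100a10, Ly6d, Wfdc2 and Scand1 overlapped between the tissues. Ly6d and Wfdc2 were low in most eWAT libraries, with medians of 0.584 and 0.807 FPKM, and reached 18.7 in HR 1 for Ly6d and 17.3 in ND 1 for Wfdc2. The tissues were set side by side without a test.

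**Figure D4:**
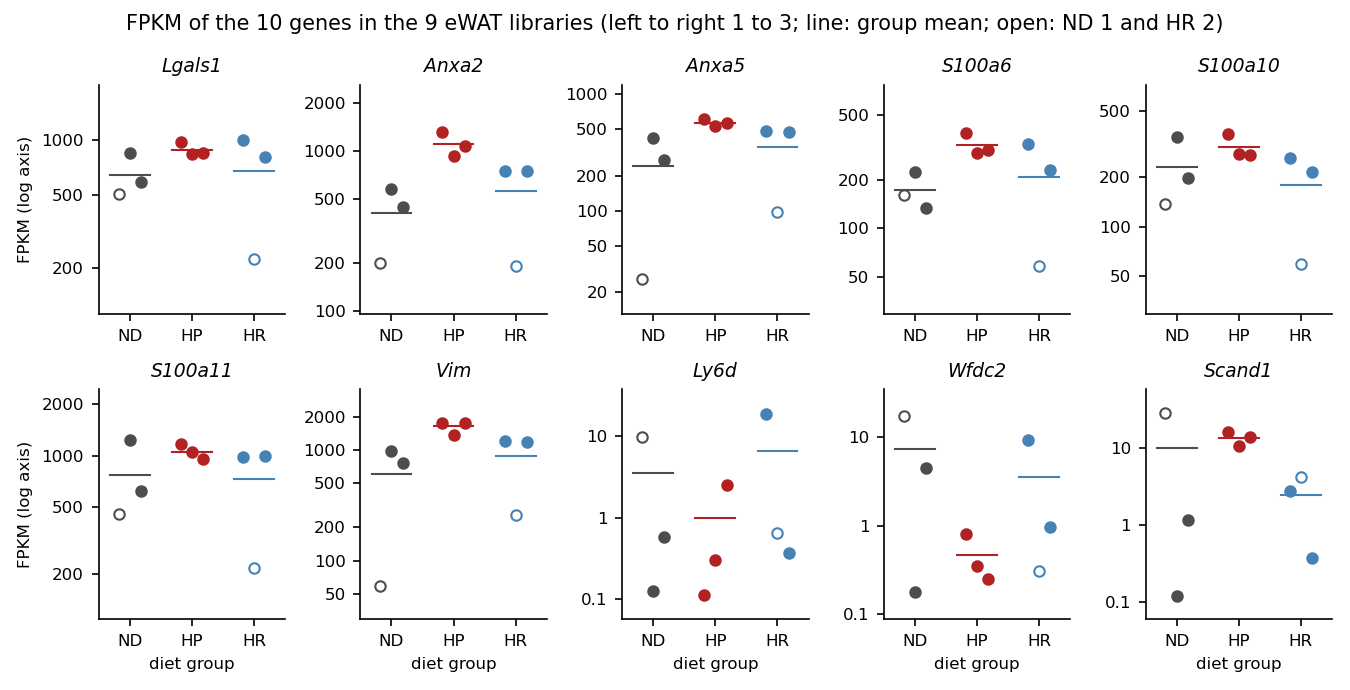
FPKM of each of the 10 genes in the 9 eWAT libraries, on log axes that differ between panels. Points are libraries 1 to 3 from left to right, lines are means of all 3, and open points mark ND 1 and HR 2, which carried the most spermatid transcripts. For Anxa5 and Vim the open points are the lowest of all libraries, and the 3 HP points lie above every ND and HR point.

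Over all 9 eWAT libraries 0 of the 10 genes passed in prone mice against the normal diet by limma, against 2.07% of genes called higher and 0.0416% called lower. Differences ran from -1.75 (Wfdc2) to 2.19 (Vim) with adjusted p from 0.42 to 0.792, and 1 gene, Anxa2, had an unadjusted p under 0.05 (0.0441). HP lay above ND without overlap for 4 of the 10 (Anxa2, Anxa5, S100a6 and Vim), against 20.8% of all genes. In HR against ND and in HP against HR 0 of the 10 passed, as did 0% of all genes, where 392 and 679 genes had an unadjusted p under 0.05, none of the 10 among them. The libraries ND 1 and HR 2 were low for the genes abundant in fat: Vim measured 59.3, 984 and 769 FPKM in ND 1 to 3, 1766, 1375 and 1779 in HP, and 1223, 261 and 1193 in HR.

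Without ND 1 and HR 2, 7 libraries remained (2 ND, 3 HP and 2 HR) and 8 of the 10 genes met the filter, Ly6d and Wfdc2 failing it. In prone against normal-diet eWAT 4 of the 8 passed as higher and 0 as lower, against 15.7% and 7.4% of genes. Scand1 is 1 of the 4, but it met the filter over 7 libraries through the prone group, so its calls are not read. Anxa2 measured 580 and 446 FPKM in ND 2 and 3 and 1310, 935 and 1083 in HP 1 to 3, a difference of 1.11 (log2, SE 0.19, adjusted p = 0.00784). Anxa5 measured 421 and 274 FPKM in ND and 609, 531 and 565 in HP, a difference of 0.74 (SE 0.19, adjusted p = 0.0355). Vim was 0.90 higher (SE 0.18, adjusted p = 0.0149). In these 3 genes each HP library was above each ND library, as for 29.5% of all genes, and the ratios of mean FPKM were 2.16, 1.64 and 1.87. Scand1, as in liver, was high in the prone group: it measured 0.121 and 1.18 FPKM in ND 2 and 3, 16, 10.7 and 14 in HP, and 2.80 and 0.372 in HR 1 and 3. Its difference from ND was 3.20, given as a description. Its ND 1 value of 29.0 FPKM, from a library with spermatid transcripts, was the highest of all 18. The same 3 HP libraries gave Scand1 a difference from HR of 2.66. It was the 1 member called there, against 4.21% of genes called higher and 2.25% lower, and that call is not read either. S100a6 (0.91, adjusted p = 0.0524) missed the threshold, and Lgals1, S100a10 and S100a11 had differences of 0.32, 0.19 and 0.27 with adjusted p of 0.295 to 0.641. In HR against ND 0 of the 8 passed by limma, against 3.85% of genes called higher and 0.291% lower, and 1 (Anxa2, 0.56) had an unadjusted p under 0.05.

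The eWAT calls rested on few libraries. When each of the 7 was left out in turn or another setting was used, Anxa2 passed in HP against ND in all 13 cases, with differences of 0.86 to 1.30. The differences of Scand1, whose calls are not read, ran from 2.73 to 4.67. The number of members called, Scand1 included, ranged from 2 to 6: Vim lost its call without HP 1 (adjusted p = 0.0519) and without HP 3 (0.0683), over a range of 0.00506 to 0.0765. Anxa5 lost it without ND 3, HP 1, HP 2, HP 3, HR 1 or HR 3 (0.0632 to 0.11). The Scand1 call against HR, not read for the reason above, was also lost when any of HP 1, HP 2, HP 3, HR 1 or HR 3 was left out. Markers of macrophages moved with the same comparison: the 12 genes of recruited and lipid-associated macrophages summed to 80.8 to 554 FPKM in ND, 4415 to 6463 in HP and 490 to 2211 in HR over 9 libraries, and 12 of 12 were higher in HP against ND over 7, led by Gpnmb (7.18) and Trem2 (6.47). The 12 Kupffer cell markers, most of them carried by other tissue macrophages too, though Clec4f lay under 1 FPKM in every eWAT library, summed to 146 to 303, 1213 to 1681 and 197 to 686 FPKM with 7 of 10 higher. The adipocyte list had 1 of 10 higher and 7 lower. The part of these cells in the eWAT differences was not tested. Of relatives of the 10 genes over 7 libraries, Lgals3 rose by 4.04, S100a4 by 3.03, S100a8 by 2.60 and Anxa1 by 1.85 (adjusted p = 0.00459), and Lgals12, a galectin of adipocytes, fell by 1.62. In all, 5 of 8 annexins, 3 of 8 S100 genes and 3 of 8 galectins were higher, as were 20 of 29 cytoskeleton genes.

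Among their positions, S100a11 and S100a10 are adjacent protein-coding genes on chromosome 3. S100a6 lies on the same chromosome between S100a5 and S100a7a, both listed at 0 in liver. Of the 18 neighbouring protein-coding genes that are not members, 5 were tested in liver (Nol12, Ice2, Trdmt1, Pigt and Phf20) and 0 passed in HP against ND by limma, with adjusted p from 0.0557 to 0.867. Scand1 overlaps its neighbour Cnbd2 on the opposite strand, and without a stated strand setting their reads cannot be told apart where they overlap. Cnbd2 measured 0.133 to 0.693 FPKM in the 9 liver libraries, and 43.0 in eWAT ND 1 and 49.6 in HR 2. S100a11 has 5 other annotated genes at least 90% identical to it over 200 bases or more, all outside the table analysed here, so its reads could be shared with them. The same search found 0 for each of the other 9 genes.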

How the data were processed

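TRIzol extraction and an Illumina TruSeq mRNA kit are named per the labels' protocols, for both tissues. FPKM values of all 18 libraries were deposited by the authors in a single table. The tools named per the submitters' processing notes are Cufflinks 2.1.1, STAR 2.4.0 and CASAVA 1.8.2. The sources used here do not give their roles, the genome build, the gene annotation or how strand was handled. GENCODE M21 named 22671 of the 23474 identifiers. FPKM holds no counts, so no counting interval was possible, and RNA of another tissue lowers all other values of a library.

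The members, lists and tests were chosen with earlier results of these data known. After adding 1 to FPKM and taking log2, limma 3.58.1 (R 4.3.3, empirical Bayes with a variance trend) was fitted once per tissue over its 9 libraries. A gene was kept where 3 or more libraries reached 1 FPKM. A gene low in the other groups could meet this through 1 group alone. Tests were two-sided with Benjamini-Hochberg adjustment over all genes tested and a threshold of 0.05. The scripts were tested on simulated data. Adding 1 shrinks the differences of genes with low FPKM. Named were the 10 genes, up to 4 genes per list with the smallest adjusted p and a mean of at least 5 FPKM, and the 8 genes most like the average of the members.

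Alternatives were a pseudocount of 0.1, no filter, quantile normalization, rescaling to 1 sum, a fit of just the groups compared, a constant prior variance, the replicate block, a length and GC correction, leaving out each library, and leaving out liver HP 2 and HP 3 or eWAT ND 1 and HR 2. Settings of the 7-library fit and of the list counts were added after seeing the data. Motif searches and figures used Python 3.11.15, pandas 2.3.3 and matplotlib 3.10.9.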

Additional observations from a re-analysis of the deposited data

How the results depend on the processing

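The median difference of the 10 genes in prone against normal-diet livers was 2.33 and stayed between 1.89 and 2.47 under 17 of 18 alternatives. It was 1.45 without HP 2 and HP 3, where Scand1 failed the filter. Leaving out 1 library at a time gave 1.89 to 2.37. Scand1 also failed the filter whenever a prone library was left out, so those medians are over 9 genes, here and against resistant livers. Against resistant livers the median was 1.76, with 1.07 to 1.94 over all alternatives and 1.39 to 1.87 with 1 library left out. In HR against ND, 1 member was called, 0 to 1 with 1 library left out, and 0 without the filter on low values, where more genes were tested. Members far from the threshold changed sign there: S100a10 was -0.037 under quantile normalization and -0.038 after the length and GC correction, and S100a6 was -0.043 after that correction. With 1 library left out, S100a6 ran from -0.13 to 0.33, S100a10 from -0.10 to 0.16, Vim from -0.54 to 0.036 and Ly6d from -0.48 to 0.013. In eWAT HP against ND over 9 libraries, 0 members were called, 0 to 0 with 1 library left out, 1 after the length and GC correction (Scand1, where Ly6d was 0.35 and so changed sign) and 4 over 7 libraries. In HP against HR 1 was called over 7 libraries, and the cause was not tested. The calls over 7 libraries include Scand1, which met the filter there through the prone group. Over 7 libraries the 4 calls in HP against ND were 2 to 6 with 1 library left out and 2 without the filter. The 1 call in HP against HR was 0 to 1 with 1 library left out, 0 with a pseudocount of 0.1 and 0 without the filter. Deviations from the group means had r from -0.348 to 0.428 between same-numbered liver libraries, over 0.1 in 2 of 9 pairs. Between different numbers r ran from -0.274 to 0.322, over 0.1 in 8 of 18. In the 9 eWAT libraries the ranges were -0.843 to 0.625 and -0.796 to 0.865. Centring within groups ties these values to each other, so they do not settle whether the numbers pair libraries. With the replicate block the calls stayed at 1 in liver HR against ND and at 0 in eWAT over 9 libraries, and over 7 libraries fell from 4 to 2 and from 1 to 0. Rescaling to 1 sum moved the median of all genes by more than 0.1, to -0.20 in HP against ND and to -0.19 in HP against HR, and changed the genes called higher in HP against ND from 1870 of 3372 to 1109 of 3548. Of the lists in that comparison, the stress list fell from 18 to 12 genes called higher both with rescaling and with the length and GC correction, the cytoskeleton from 16 to 10 and 9, the S100 family from 5 to 4 and 2, and the intermediate filaments from 4 to 2 and 2. The calls over all genes moved with the libraries used. In liver HP against ND there were 3372, against 1862 without ND 1, 1935 without ND 3, 1716 without HP 2 and 360 without HP 2 and HP 3. In HP against HR there were 1185, against 229 without HP 2, 243 without HR 2, 580 without the filter and 8 without HP 2 and HP 3, and in HR against ND 345, against 91 without ND 1 and 184 with the replicate block. In eWAT HP against ND they went from 304 over 9 libraries to 3013 over 7, and to 0 when any of ND 2, ND 3, HP 1, HP 2, HP 3 or HR 1 was left out of the 9. There the replicate block gave 0 and quantile normalization 16. Depth in counts is unknown, so values under 1 FPKM, such as those of Scand1 and some of S100a6 outside prone livers, carry an unknown counting error.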

Other observations

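Markers of other liver cells were also counted in prone against resistant livers. Of the 14 tested stellate and fibroblast genes 9 passed as higher by limma and 0 as lower, against 7.2% and 3.94% of all genes. Col1a1 is among the 9 and met the filter through the prone livers. Col3a1, a fibrillar collagen, rose by 2.03 (2.37 ± 0.51 FPKM in HR, 13.7 ± 6.24 in HP, adjusted p = 0.00386), Col1a2 by 1.86 and Dcn, the proteoglycan decorin, by 0.93. Of the recruited macrophage genes 3 of 5 tested were higher: Cd68 (1.26), Cd9 (1.07) and Mmp12. Mmp12 was near the floor in ND (0.197 ± 0.126 FPKM), so its call is not read. Without HP 3, Cd9 alone passed, 1 of 4 tested. Of the Kupffer cell genes 1 of 12 was higher, Clec4f (0.51, adjusted p = 0.045), a share near that of all genes. Without HP 3, 0 of the 12 passed by limma (1 at an unadjusted p under 0.05). Of the adipocyte genes 3 of 5 tested were higher, Fabp4 by 1.51, Cidec by 1.46 and Pparg by 0.71, and Lipe (-0.34) and Adrb3 (-0.28) did not pass. The 9 stellate and fibroblast calls were 3 without HP 2, 3 without HR 2 and 4 without HP 3, and 4 without the filter on low values. Without HP 3, Dcn and Pparg were no longer called, while Col3a1, Col1a2, Fabp4 and Cidec were. With HP 1 as the only prone library few genes of any kind were called, so whether these calls hold without HP 2 and HP 3 cannot be told.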
